A study of Homo sapiens with 6 samples.

Results

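The 36 aminoacyl-tRNA synthetase genes examined here are the nuclear genes whose enzymes join amino acids to their transfer RNAs, 20 of them for cytosolic and 16 for mitochondrial translation. They were chosen by gene symbol, in the older form of the lists (AARS is now AARS1, for example), and looked up among 19222 protein-coding genes of the autosomes. Binding of N-Myc and of the lysyl hydroxylase and demethylase JMJD6 was mapped by chromatin immunoprecipitation and sequencing in CHP-134, a human neuroblastoma cell line that the labels describe as overexpressing N-Myc. There were 3 samples with an N-Myc antibody, fixed with formaldehyde, and 3 with a JMJD6 antibody, fixed with disuccinimidyl glutarate and then formaldehyde. The labels name no treatment, and all samples came from this 1 line. Each deposited list holds only positions of regions found in all 3 samples of an antibody, so a gene is listed or not, and no value has a replicate error. The lists hold 10172 N-Myc peaks, 561 JMJD6 peaks, 5114 promoters with N-Myc and 177 with JMJD6. A promoter here is the stretch from 1 kb before to 1 kb after a RefSeq start site. Positions are given in hg19, the build of GRCh37.

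Each synthetase recognises its amino acid and the matching transfer RNAs, and the charged transfer RNAs then supply the ribosome. Human cells run this step in the cytosol and, with a mostly separate set of nuclear-encoded enzymes, in the mitochondrion. The enzymes fall into class I and class II by the fold of their catalytic domain, and several cytosolic ones sit together in the multi-synthetase complex. Myc proteins are known for binding genes of ribosome assembly and translation, most often at the E-box CACGTG, and N-Myc is the member amplified in many neuroblastomas. Many cytosolic synthetase genes are also known targets of ATF4, the transcription factor of the amino acid response.

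N-Myc was listed at the promoters of 24 of the 36 synthetase genes (66.7%), against 18.3% of all coding genes. The share was 65% of the cytosolic genes (13 of 20) and 68.8% of the mitochondrial genes (11 of 16). Genes with few CpG dinucleotides at their start are rarely listed, so the share was also taken over coding genes whose CpG ratio reached the lowest value of a member, where it was 24.5%. The members were chosen with such results known, so these shares are a description without a test.

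Among the cytosolic enzymes, the listed genes charge alanine (AARS), cysteine (CARS), aspartate (DARS), glutamate and proline (EPRS, 1 protein with both activities), phenylalanine (FARSB, the beta subunit of a 2-subunit enzyme), histidine (HARS), isoleucine (IARS), leucine (LARS), methionine (MARS), asparagine (NARS), arginine (RARS), threonine (TARS) and tyrosine (YARS). The 7 cytosolic genes without a listed promoter were FARSA, the alpha subunit partner of FARSB, and those for glycine (GARS), lysine (KARS), glutamine (QARS), serine (SARS), valine (VARS) and tryptophan (WARS). GARS and KARS each encode both the cytosolic and the mitochondrial enzyme. Counted as mitochondrial they turn the order of the compartments, to 13 of 18 cytosolic (72.2%) and 11 of 18 mitochondrial genes (61.1%). The pair FARSA and FARSB make 1 enzyme, and N-Myc was listed at the promoter of the beta subunit alone.

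Among the mitochondrial enzymes, the listed genes were AARS2 (alanine), CARS2 (cysteine), EARS2 (glutamate), FARS2 (phenylalanine), HARS2 (histidine), MARS2 (methionine), NARS2 (asparagine), RARS2 (arginine), TARS2 (threonine), WARS2 (tryptophan) and YARS2 (tyrosine). The 5 without a listed promoter were IARS2 (isoleucine), LARS2 (leucine), PARS2 (proline), SARS2 (serine) and VARS2 (valine).

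**Figure D1:**
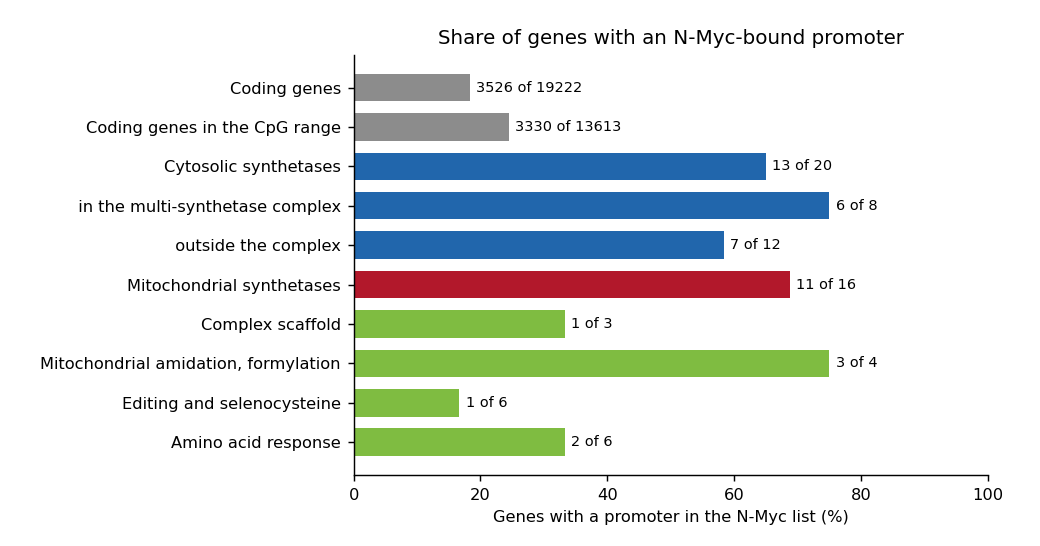
Each bar gives the share of a gene group, in percent, whose promoter is in the N-Myc list, with the number of genes listed and the group's size at its end. Grey bars are all autosomal coding genes (18.3%) and those whose CpG ratio reached the lowest value of a member (24.5%, labelled as the CpG range, with no upper limit). Blue bars are cytosolic synthetases, the red bar mitochondrial synthetases (11 of 16) and green bars related genes. Both synthetase groups lie above the grey bars.

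Set side by side by amino acid, 16 amino acids had a gene for each compartment. For 10 of them N-Myc was listed at both genes, namely alanine, arginine, asparagine, cysteine, glutamate, histidine, methionine, phenylalanine, threonine and tyrosine. At 3 amino acids only the cytosolic gene was listed (IARS, LARS, and EPRS for proline), and for tryptophan only the mitochondrial WARS2. Neither gene was listed for serine or valine. Of the 8 members of the multi-synthetase complex, 6 were listed (DARS, EPRS, IARS, LARS, MARS and RARS), and KARS and QARS were not. Outside the complex 7 of 12 cytosolic genes were listed (58.3%). Class I and class II did not part the genes, with 12 of 18 listed in class I and 11 of 17 in class II, EPRS being of both classes. The GC content of the 2 kb around the start site had a median of 51.8% in listed and 55.15% in unlisted members, and the observed to expected CpG ratio had medians of 0.6435 and 0.65, with overlapping ranges (0.478 to 0.819 and 0.459 to 0.824).

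The unlisted members were not near misses of the promoter window. None of the 12 had an N-Myc peak within 1 kb of any annotated start site, nor within 2 kb. The nearest peak lay 3.697 kb from the start site of FARSA, 4.174 kb from IARS2 and 5.882 kb from VARS2. At KARS it was 24.14 kb away, at SARS2 30.81 kb, at VARS 31.34 kb, at GARS 48.76 kb and at SARS 49.67 kb. WARS (110.9 kb), PARS2 (127.4 kb), QARS (184.7 kb) and LARS2 (204.6 kb) had none within 100 kb. Listing itself requires a peak within 1 kb of a RefSeq start site, so that listed members lie nearer to a peak was built in. Among the listed, FARS2 was the farthest, at 0.944 kb from its annotated start site.

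At each of the 24 listed members a peak common to the N-Myc samples overlapped the listed promoter, as listing requires, and these came to 25 distinct peaks. The peak covered the annotated start site in 19 of 24 members, where 56.7% of all N-Myc promoter peaks covered a listed start site. The 5 others were CARS, CARS2, EPRS, FARS2 and YARS2. The 19 of 24 counts genes, with the peak of HARS and HARS2 entered at both, whereas the 56.7% counts peaks and uses listed starts. Peak midpoints lay upstream of the start site for 15 of 25 peaks (60%) and within 250 bp of it for 20 of 25 (80%). Over all promoter peaks, measured from the nearest listed start site, these shares were 54.3% and 58.4%. The farthest upstream was that of FARS2, at -1073 bp from the annotated start site used here, although it lies inside a listed promoter of a more upstream RefSeq start of the same gene. The farthest downstream were those of YARS2, at 618 bp in the coding sequence, and the second peak of DARS, at 609 bp in an intron.

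**Figure D2:**
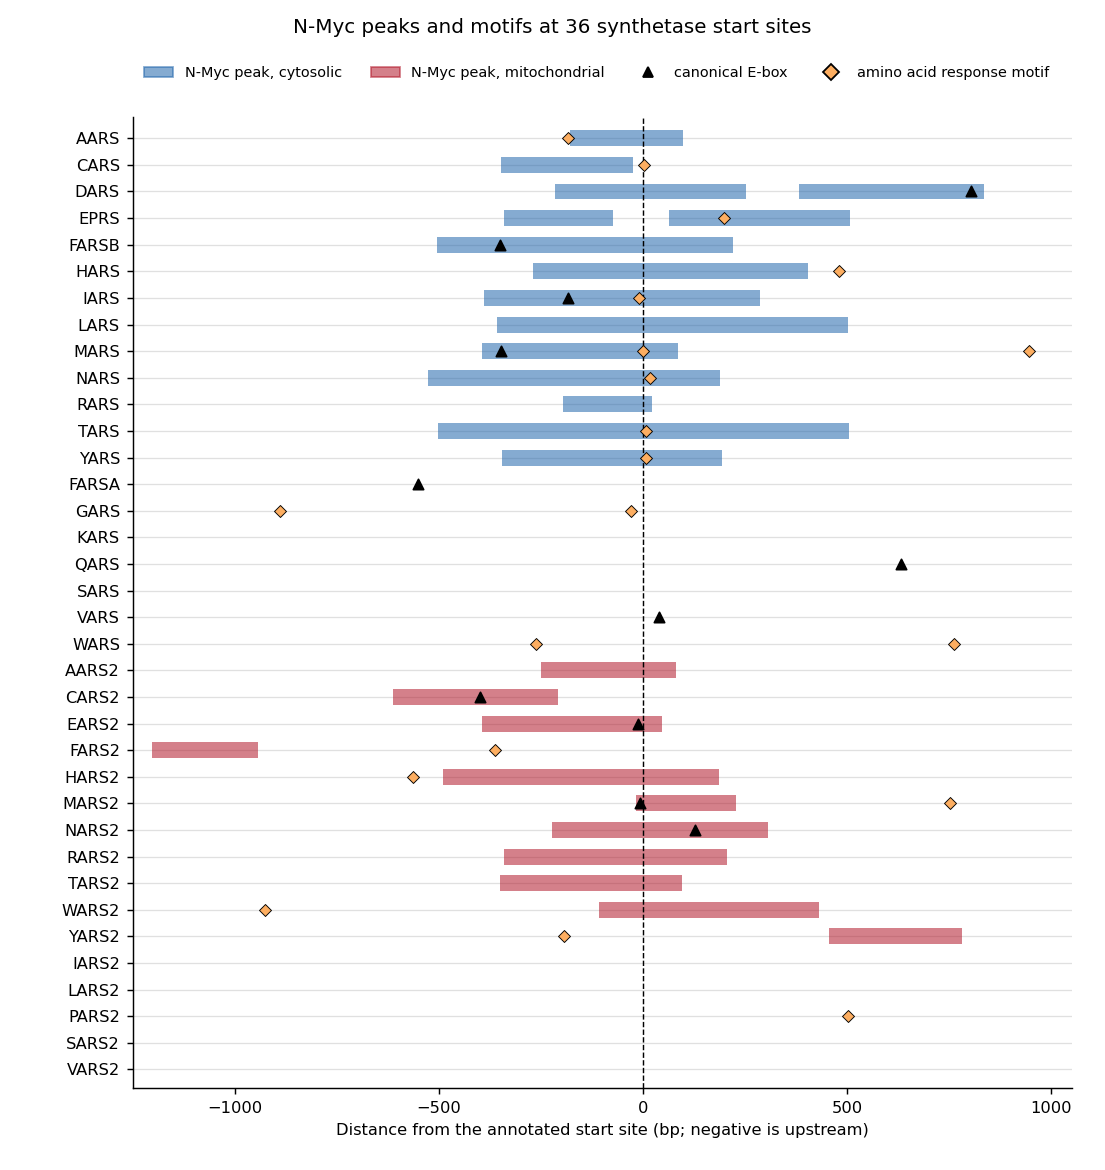
Each row is a synthetase gene drawn along its own strand, and the horizontal axis is the distance in bp from its annotated start site (dashed line), negative upstream. Bars are N-Myc peaks at listed promoters (blue cytosolic, red mitochondrial), triangles are CACGTG E-boxes and diamonds are amino acid response motifs (TGATGNAA), both within 1 kb. Diamonds inside peaks occur in 6 cytosolic rows and in no mitochondrial row.

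The deposited lists carry no peak height, and width is the only measure of a peak they allow. The widest peak among the cytosolic members was at TARS (chr5:33440568-33441575, 1008 bp), centred 1 bp from the start site and at least as wide as 96.1% of N-Myc promoter peaks. LARS followed (chr5:145561711-145562569, 859 bp, 92.4%), centred 73 bp downstream in untranslated exon sequence. FARSB (chr2:223520592-223521314, 723 bp), NARS (chr18:55288880-55289594, 715 bp) and IARS (chr9:95055693-95056368, 676 bp) had midpoints upstream, at -142, -169 and -52 bp. All 5 were wider than the upper quartile of promoter peaks, 612 bp.

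The widest mitochondrial peak was at HARS2 (chr5:140070551-140071225, 675 bp), and it is the same peak as that of HARS, since the genes start next to each other on opposite strands. The next were RARS2 (chr6:88299499-88300044, 546 bp, midpoint at -67 bp), WARS2 (chr1:119682844-119683383, 540 bp, 162 bp downstream in an intron), NARS2 (chr11:78285602-78286131, 530 bp, 42 bp downstream) and TARS2 (chr1:150459544-150459990, 447 bp, at -128 bp). These 4 lie between the quartiles of all promoter peaks (343 to 612 bp). At the other end were RARS with 216 bp, MARS2 with 247 bp and FARS2 with 260 bp. The 25 member peaks had a median width of 452 bp, the same as that of all 3550 N-Myc promoter peaks. Taking each gene's widest peak, the median was 539 bp in cytosolic members (216 to 1008 bp, n = 13) and 440 bp in mitochondrial members (247 to 675 bp, n = 11), and the ranges overlapped.

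**Figure D3:**
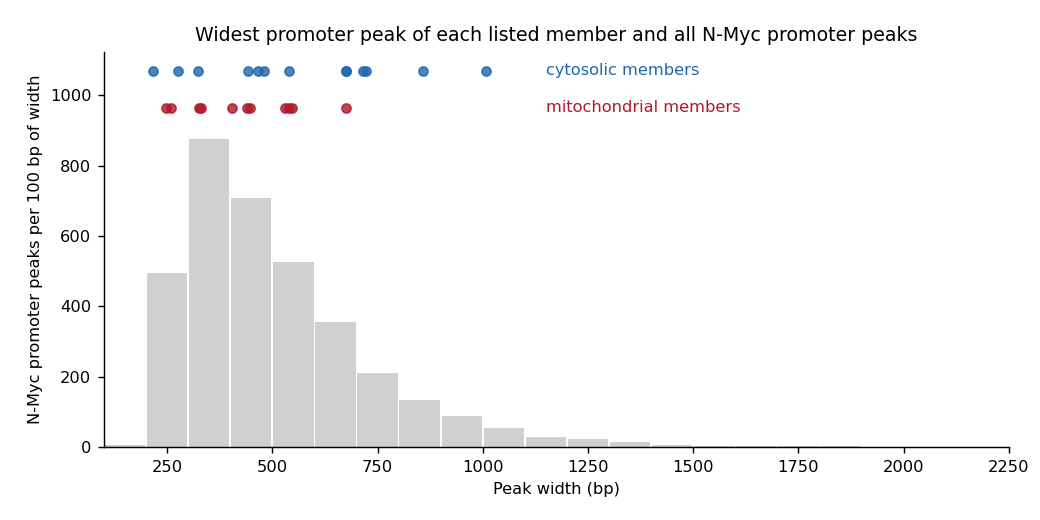
The grey bars count all 3550 N-Myc promoter peaks per 100 bp of peak width (horizontal axis, bp). Points above them mark the widest promoter peak of each listed cytosolic (blue) and mitochondrial (red) member, at heights without meaning. The members spread over the bulk of the distribution, from RARS at 216 bp to TARS at 1008 bp.

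A pair of members had 2 peaks at their promoter (2 of 24, 8.33%), near the 8.19% of all N-Myc promoters. DARS had 1 over its start site (chr2:136742945-136743410) and 1 in an intron (chr2:136742361-136742812). EPRS had peaks on either side of its start site, at chr1:220219920-220220188 with its midpoint at -207 bp and at chr1:220219341-220219782 with its midpoint 285 bp downstream in an intron. Neither EPRS peak reached the start site, and the nearer ended 65 bp from it.

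In 11 of 24 listed members (45.8%) the promoter overlapped a listed promoter of another symbol, against 39.9% of symbols in the N-Myc list. HARS and HARS2 shared theirs with each other. AARS shared with DDX19B, DARS with the antisense RNA DARS-AS1, IARS with the small RNAs MIR3651 and SNORA84, MARS with ARHGAP9 and YARS with S100PBP. EARS2 shared with UBFD1, FARS2 with LYRM4, RARS2 with ORC3 and WARS2 with LOC101929147. Which gene such a peak serves cannot be told apart from position alone. At members whose promoter was shared with no other symbol, 7 cytosolic and 6 mitochondrial genes were listed.

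The canonical E-box CACGTG, the sequence that Myc and its partner Max bind, was searched on both strands (it reads the same on each). It lay in a promoter peak of 8 of 24 listed members (33.3%), 4 of 13 cytosolic and 4 of 11 mitochondrial, where 36.9% of all N-Myc promoter peaks held it. They were DARS, FARSB, IARS, MARS, CARS2, EARS2, MARS2 and NARS2. The MARS E-box with the 12 bases that follow it occurs 4455 times in the genome, and with the 12 bases before it 21 times, where these counts were 1 to 3 at the 7 others. Whether reads there map uniquely was not tested. The E-boxes of 4 of them are shown because they are Myc's own motif under the peak, each on the gene's strand from 5′ to 3′ with the E-box in capitals, ordered by distance from the start site.
MARS2: atgcgcctctcaCACGTGctgtcagaacgc
EARS2: cagggagaagccCACGTGtgctattccatc
NARS2: agctgccaactgCACGTGgtttctttctgg
FARSB: ggcaagatctccCACGTGgaggccccaccc

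The E-box of MARS2 lay 8 bp upstream of the start site (printed bases chr2:198570070-198570099, plus strand) and that of EARS2 12 bp upstream (chr16:23568669-23568698, minus strand). That of NARS2 was 126 bp downstream, in untranslated exon sequence (chr11:78285769-78285798, minus strand). That of FARSB lay 351 bp upstream (chr2:223521148-223521177, minus strand). Among listed members the E-boxes of the mitochondrial genes MARS2, EARS2 and NARS2 were thus the nearest to a start site, and no cytosolic one lay within 100 bp.

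Most member E-boxes lay away from the centre of their peak. Their distance from the peak midpoint had a median of 146.5 bp (11 to 209.5 bp, n = 8), whereas the nearest E-box of all 1309 promoter peaks that held one was a median of 70.5 bp away. The NARS2 E-box was 83 bp from the midpoint, and 6 of the 8 were over 100 bp away. Among related hexamers that Myc can bind, CACGCG lay in the peaks of 9 of 24 listed members (37.5%, against 29.2% of promoter peaks), and CATGTG in 3 of 24, against 22.5%. At least 1 of the 3 hexamers was found at 15 of 24 members (62.5%), against 67.3% of promoter peaks. HARS and HARS2 enter the CACGCG count and this joint count through 1 shared peak, whereas the background shares count each peak once. The 9 listed members whose peak held none of the hexamers were AARS, CARS, EPRS, RARS, AARS2, FARS2, RARS2, TARS2 and YARS2.

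Within 1 kb of the start site, CACGTG occurred at 8 of 24 listed members, where it did so at 47.1% of listed coding genes, and at 3 of 12 unlisted members, where it did so at 25.2% of unlisted coding genes (29.2% of all coding genes). The 3 unlisted members were VARS, with an E-box 38 bp downstream of its start site, FARSA at -552 bp and QARS at 631 bp. Thus VARS carried an E-box nearer to its start site than any listed member but MARS2 and EARS2, and had no N-Myc peak within 31.34 kb. The listed members held the E-box no more often than other listed genes.

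The amino acid response motif TGATGNAA, bound by ATF4 with a C/EBP partner, was searched on both strands in the same windows, and no copy at a member overlapped a CACGTG. It lay in a promoter peak of 6 of 24 listed members (25%), against 4.87% of N-Myc promoter peaks. All 6 were cytosolic (EPRS, IARS, MARS, NARS, TARS and YARS), 6 of 13 listed cytosolic members and 0 of 11 listed mitochondrial members. All 6 copies read TGATGCAA, which 1.55% of N-Myc promoter peaks held.

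Within 1 kb of the start site TGATGNAA occurred at 14 of 24 listed members (58.3%), against 16.8% of listed coding genes, and at 3 of 12 unlisted members (25%: GARS, WARS and PARS2), against 19.1% of unlisted coding genes. By compartment it was at 11 of 20 cytosolic and 6 of 16 mitochondrial members, beside 18.7% of all coding genes. The copies counted at HARS and at HARS2 are the same site, which thus enters the counts of both genes and both compartments. Within 250 bp, a window chosen after the positions were seen, TGATGNAA was at 9 of 20 cytosolic members and 1 of 16 mitochondrial members (YARS2), beside 3.42% of coding genes. The form TGATGCAA, likewise chosen afterwards, was within 1 kb of 9 of 20 cytosolic members (45%) and of FARS2 alone among the mitochondrial ones, beside 3.66% of coding genes. Within 250 bp TGATGCAA was at 8 of 20 cytosolic members (40%) and 0 of 16 mitochondrial members, beside 0.822% of coding genes. These 8 were all N-Myc-listed, so that 61.5% of the 13 listed cytosolic members held it and none of the 7 unlisted ones did. That split rests on the window, since the unlisted WARS held TGATGCAA 262 bp upstream, just outside it, and again 761 bp downstream. The difference between compartments was seen in the data first and was not tested.

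The copies within 250 bp are shown because the compartments part at them. Each is on the gene's strand, 5′ to 3′, with TGATGCAA or its reverse complement TTGCATCA in capitals, ordered by distance from the start site.
MARS: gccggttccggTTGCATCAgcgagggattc
CARS: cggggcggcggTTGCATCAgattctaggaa
TARS: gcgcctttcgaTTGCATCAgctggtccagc
YARS: ccgagcccagcTGATGCAAcctggctggac
IARS: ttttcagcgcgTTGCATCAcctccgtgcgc
NARS: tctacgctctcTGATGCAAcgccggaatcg
AARS: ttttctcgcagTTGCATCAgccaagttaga
EPRS: acctgtgtgggTTGCATCAgccagggaggg

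The motif sat on the start site itself at MARS (offset 0 bp, printed bases chr12:57881836-57881865, plus strand). It lay 2 bp downstream at CARS (chr11:3078637-3078666, minus strand), 6 bp at TARS (chr5:33441062-33441091, plus strand), 7 bp at YARS (chr1:33282938-33282967, minus strand) and 18 bp at NARS (chr18:55289036-55289065, minus strand), in each case in untranslated exon sequence. At IARS it was 9 bp upstream (chr9:95055974-95056003, minus strand). At these 6 genes, which charge methionine, cysteine, threonine, tyrosine, asparagine and isoleucine, the motif and the annotated start site thus nearly coincide. Where transcription starts in these cells was not measured. AARS had it 183 bp upstream (chr16:70323578-70323607, minus strand) and EPRS 198 bp downstream in an intron (chr1:220219635-220219664, minus strand). The AARS copy missed its N-Myc peak by 1 base and the CARS copy by 21 bases, and the 6 others were inside the peak.

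Both CACGTG and TGATGCAA were found within 1 kb of 2 of 36 members, IARS and MARS. The share of all coding genes with both was 0.983%. At each of the genes the motifs lay under 1 peak, and at MARS the E-box is the one in repeated sequence.

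**Figure D4:**
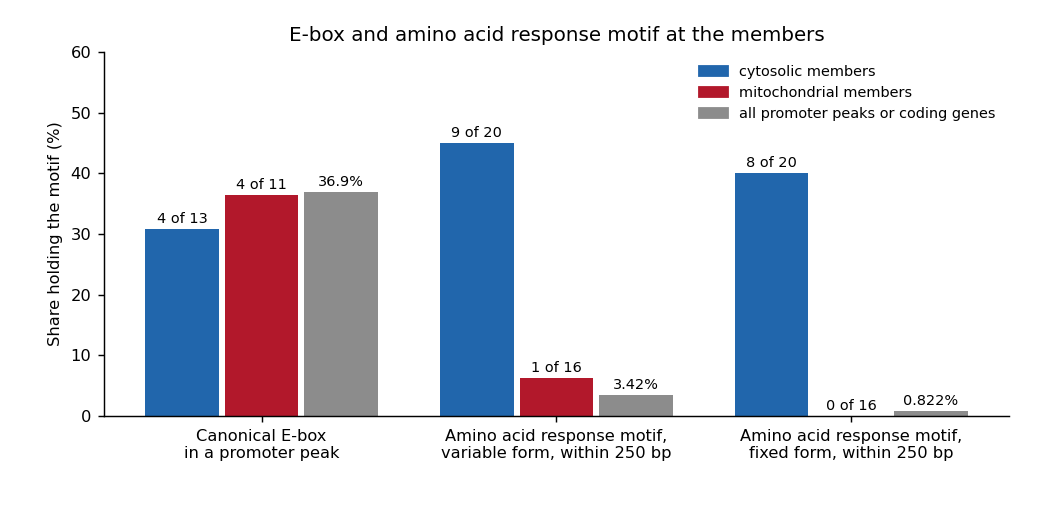
Bars give the share, in percent, of cytosolic members (blue), mitochondrial members (red) and the background (grey) that hold a motif. On the left is CACGTG in a promoter peak of listed members (4 of 13, 4 of 11) beside all N-Myc promoter peaks (36.9%), in the middle TGATGNAA (variable form) and on the right TGATGCAA (fixed form), both within 250 bp of the start site, over all members and all coding genes. The E-box bars stand at the background, and only the cytosolic bars stand high for the response motif.

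N-Myc-bound enhancers, which are regions of the H3K27 acetylation mark stitched together when close and assigned to their 2 nearest genes, named 19 of 36 members (52.8%), against 32.7% of coding genes. They were 12 of 20 cytosolic genes (all listed ones but YARS) and 7 of 16 mitochondrial genes (CARS2, EARS2, FARS2, MARS2, NARS2, WARS2 and YARS2). All 19 also had an N-Myc-listed promoter, and the 5 listed members that no enhancer named were YARS, AARS2, HARS2, RARS2 and TARS2. No N-Myc super-enhancer named a member, where 1.36% of coding genes were named by one.

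Most of these enhancers lay over the promoter. The study's methods state that H3K27 acetylation peaks near start sites were removed before stitching, and these regions depart from that definition. Why they are in the list was not tested. A region over a promoter can be N-Myc-bound through the promoter peak itself, as at RARS. The enhancer and promoter counts are therefore not independent. Of 23 regions, 18 overlapped the member's own listed promoter, and this held for 18 of the 19 members. The share of all N-Myc enhancers that overlap an N-Myc promoter was not taken, so this count has no background. These 18 regions ran from 540 bp at RARS to 12471 bp at AARS, where the region also reached the promoter of the RNA helicase gene DDX19B. The 5 regions away from the promoter lay 19.57 kb from the start site of LARS (chr5:145581781-145584271), 25.59 kb from IARS (chr9:95027066-95030390), 76.72 kb from CARS2 (chr13:111267403-111281747), 209.9 kb from FARS2 (chr6:5471618-5473025) and 340.1 kb from TARS (chr5:33781126-33782781). Those named for LARS and CARS2 overlapped N-Myc promoters of other genes, and those for IARS, FARS2 and TARS overlapped none. FARS2 was the single member named by a distant region alone.

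JMJD6 was listed at none of the 36 synthetase promoters and in none of the enhancers or super-enhancers that name a member, and so no member was in a list of regions bound by both proteins. JMJD6 promoters are rare, at 0.655% of coding genes, a share at which fewer than 1 of 36 genes would be listed, so the count of 0 says little about synthetase genes in particular. None of the 25 N-Myc peaks at member promoters was shared with JMJD6. Over the whole series the list of shared peaks holds 241, beside 10172 N-Myc peaks, so that absence also says little about the members. The JMJD6 lists hold 96 enhancers and 9 super-enhancers, and the share of coding genes they name was not taken. The nearest JMJD6 peak to a start site was at NARS2, the mitochondrial asparagine enzyme, 9.135 kb away (chr11:78295044-78295234). KARS (37.47 kb) and CARS (56.76 kb) followed, and 33 of 36 members had none within 100 kb. The gap had a median of 3262 kb over the members and 2376 kb over all coding genes. The antibodies differ in fixation as well as in target, and these cannot be told apart in the number of regions found.

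**Figure D5:**
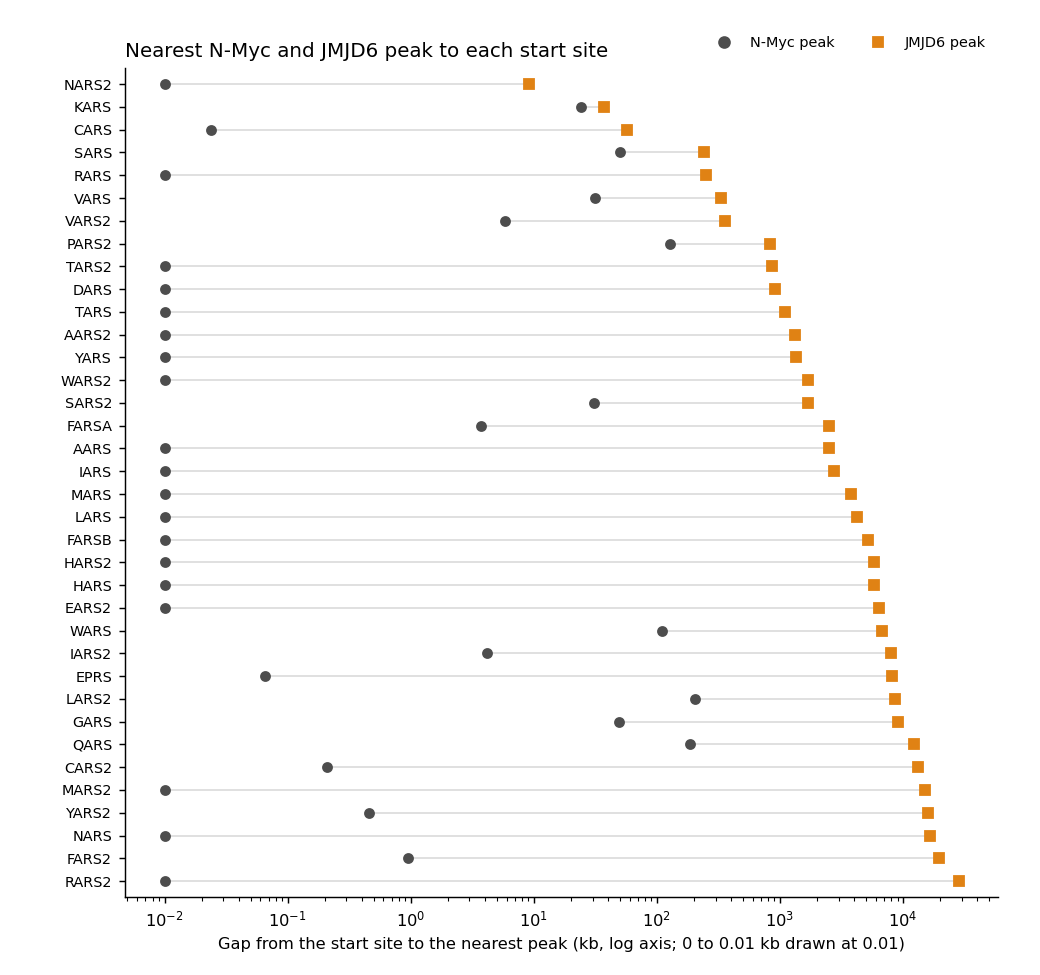
For each synthetase gene (rows, ordered by the JMJD6 gap) the horizontal log axis gives the gap in kb from the annotated start site to the nearest N-Myc peak (grey circles) and JMJD6 peak (orange squares), with a peak over or within a few bases of the start site drawn at the left edge. N-Myc gaps are either below 1 kb or at least 3.697 kb, and JMJD6 gaps start at 9.135 kb (NARS2).

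Genes that work beside the synthetases were looked up in the same way, and N-Myc was listed at 7 of 19 (36.8%), beside the 18.3% of coding genes. Of the scaffold proteins of the multi-synthetase complex 1 of 3 was listed, AIMP2 (chr7:6048502-6049113, 612 bp, midpoint at -95 bp), and AIMP1 and EEF1E1 were not. In mitochondria glutamine transfer RNA is charged with glutamate and then amidated, and all subunit genes of that amidotransferase were listed, namely QRSL1 (825 bp peak), PET112, now GATB (456 bp), and GATC (357 bp). The promoters of QRSL1 and GATC were shared in the list with RTN4IP1 and TRIAP1, and that of AIMP2 was also shared with another symbol. MTFMT, which formylates the initiator methionyl transfer RNA made by MARS2, was not listed. A list of 6 genes held those of editing and selenocysteine charging and also TARSL2 (now TARS3), itself a threonine synthetase gene. Of these 1 of 6 was listed, AARSD1, a homologue of the alanine editing domain, with a 1245 bp peak and E-boxes at -249 and 121 bp. DTD1, DTD2, SEPSECS, PSTK and TARSL2 were not.

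Of 6 genes of the amino acid response, N-Myc was listed at ATF4, its transcription factor, and at CHAC1, a glutathione-degrading target of ATF4. The ATF4 peak (chr22:39916027-39916697, 671 bp) held an E-box 82 bp upstream of the start site and no TGATGNAA. The CHAC1 peak (chr15:41245426-41245630, 205 bp) held the response motif 205 bp upstream. The kinase EIF2AK4, which senses uncharged transfer RNA, and the ATF4 targets DDIT3, ASNS and TRIB3 were not listed. A peak lay 1.404 kb from the start site of DDIT3 used here, and within 1 kb of another annotated start of that gene. TGATGCAA was within 1 kb of 3 of these 6 genes (CHAC1, DDIT3 and TRIB3). No gene of these related lists was in a JMJD6 list (0 of 19).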

How the data were processed

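Per the labels and the study's methods, the authors aligned reads with BWA, called peaks per sample against input with MACS2 (2.1.1.20160309 in the submitters' processing notes, which also name SAMtools and bedtools) at a q-value maximum of 0.05, and kept peaks present in all 3 samples of an antibody. The deposited lists give positions in bp. They hold no height, count or coverage, so depth could not be brought to bear on any value and replicates could not be compared. Which samples were separate cultures was not used here.

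Members were matched by symbol, older or newer. Starts came from GENCODE version 44 lifted to GRCh37. Offsets, gaps and motif windows used 1 start per gene, and matching by position and peak windows took its other annotated starts too. Of N-Myc promoter rows of coding genes, 81.4% were centred within 100 bp of an annotated start of that symbol, and of the members' rows 20 of 27 (74.1%). Motifs and overlaps of at least 1 bp were found in Python 3.11.15 with pysam 0.24.0, after testing on simulated sequences. Percentages are over 19222 autosomal coding genes or 3550 promoter peaks. The members and lists were chosen with earlier results of these data known, so no test was run. Every member is named. Peaks are given in full for the 5 widest of each compartment and for members with 2 peaks, and the rule for sequences took the 8 E-boxes nearest a start site, 4 of which are not reported here. The response-motif sequences were added after their positions were seen.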

Additional observations from a re-analysis of the deposited data

How the results depend on the processing

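No paired analysis was possible because the lists pool the samples of an antibody, and for the same reason no sample could be left out. Counts of N-Myc-listed members stayed at 13 cytosolic and 11 mitochondrial when promoters were matched by position, by peak overlap, with at least 50% of the peak inside, or in windows of 500 bp or 2 kb. Peak overlap is how the lists were made, so that match left little room for change. Requiring a peak at least as wide as the list median of 418 bp left 10 cytosolic and 6 mitochondrial members. Leaving out promoters shared with another symbol left 7 and 6, where 39.9% of symbols in the N-Myc list had a shared promoter. Shares of all coding genes under these filters are not given, so the filtered counts cannot be set beside a background. With GARS and KARS counted as mitochondrial the shares were 72.2% and 61.1%. The background was 17.5% over all chromosomes and 19.1% by position. Members with an E-box in the peak rose from 8 to 15 with CACGCG and CATGTG added, and fell to 2 within 100 bp of the peak centre. For that narrower window the share of all N-Myc promoter peaks was not taken. Members with an enhancer fell from 19 to 3 when regions overlapping an N-Myc promoter were left out, and to 18 within 100 kb, again without a share of all coding genes. The count of 0 members with JMJD6 stayed at 0 by position. Without scores, weak and strong peaks are told apart by width alone.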
